A study of Danio rerio with 12 samples.

Results

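Genes of the cell cycle and of DNA replication were described across 12 bulk RNA-seq libraries of adult zebrafish hearts. The 50 genes were listed by name for what they do, from origin licensing to the end of cell division, with earlier results of these data known. Of them, 49 were in the deposited table of 22736 genes, and *ccnd3* was not analysed here. All 49 had a mean above 5 normalized counts over the 12 libraries, the minimum for testing, as did 16643 genes of the table in all.

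Hearts came from *myd88*-/- fish, which carry the loss-of-function allele *myd88* hu3568, and from their *myd88*+/+ siblings. MyD88 is the adaptor that passes signals from most Toll-like receptors and from interleukin-1 receptors into the cell. The question was how tissue with and without MyD88 responds to a cryoinjury. In each genotype 3 states were sequenced, with 2 libraries for each of the 6 conditions: ventricles left untouched (UT) and the injured tissue taken 1 hour or 24 hours after cryoinjury (1 and 24 hpci). The fish were 3 to 12 months old and of the AB strain, and both genotypes were given the injury. Each library was a pool of 3 whole ventricles (UT) or 3 injured tissues (1 and 24 hpci), so the 2 libraries of a condition differ by the fish pooled, and the piece of tissue taken and the injury cannot be told apart in a comparison with UT. In these bulk samples fewer cells of a type and less RNA per cell cannot be told apart either.

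A cell that leaves rest first raises D-type cyclins, which with Cdk4 and Cdk6 release E2F transcription factors from the retinoblastoma proteins. E2F factors then switch on the genes for S phase: the Mcm helicase, which is loaded on origins and unwinds DNA, and the enzymes that make nucleotides and copy the strands. Later, B-Myb and FoxM1 switch on the genes for mitosis, whose products build and check the spindle and separate the daughter cells. Zebrafish regrow heart muscle after injury, and several cell types of the injured heart divide while they do so. The roles named below are those known from yeast, frog and mammalian cells. In names such as *ccnd2a* and *ccnd2b* or *prc1a* and *prc1b* the added a or b marks a pair of zebrafish copies. *aurka* and *aurkb* are different Aurora kinases and not such a pair.

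The values are read counts divided by a library size factor and rounded (normalized counts), and the normalized totals lay between 2998177 and 3747891 per library. From the spacing of the low values, 1 read was worth 0.728 to 1.06 normalized counts in 11 libraries and 2.54 in replicate 1 of *myd88*+/+ at 24 hpci, which was estimated to hold 1476710 reads against 3035695 to 4121336 in the others. A floor of 3 reads, the lowest level taken here as detected, therefore stood for 7.61 normalized counts in that library and for 2.18 to 3.19 in the others, a limit that covers counting error only. The mutated gene itself, *myd88*, had 63 and 56 normalized counts in untouched *myd88*+/+ hearts and 32 and 37 in untouched *myd88*-/- hearts, 200 and 171 against 199 and 210 at 1 hpci, and 79 and 113 against 43 and 66 at 24 hpci. None of its genotype differences passed the test, and a loss-of-function allele need not lower its RNA. Markers of heart muscle were found in every library, with a sum over 10 table entries of 7157 to 17915. Replicate 2 of *myd88*+/+ at 1 hpci stood apart by its fast skeletal muscle genes, whose sum was 5739 against 767 to 2158 in the other 11 libraries.

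The 49 genes together were lowest at 1 hpci and highest at 24 hpci in both genotypes. Their summed normalized counts were 2576 and 3608 in untouched *myd88*+/+ hearts, 1614 and 2912 at 1 hpci and 6407 and 7142 at 24 hpci. For *myd88*-/- hearts the sums were 2922 and 2746, then 1930 and 1806, then 7468 and 7626. All 4 libraries at 24 hpci lay above all 8 others, while replicate 2 of *myd88*+/+ at 1 hpci lay within the range of the UT ventricles. The heatmap gives each gene by library, and some genes, such as *gmnn*, *mybl2b* and *mxd3*, did not follow this course.

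**Figure D1:**
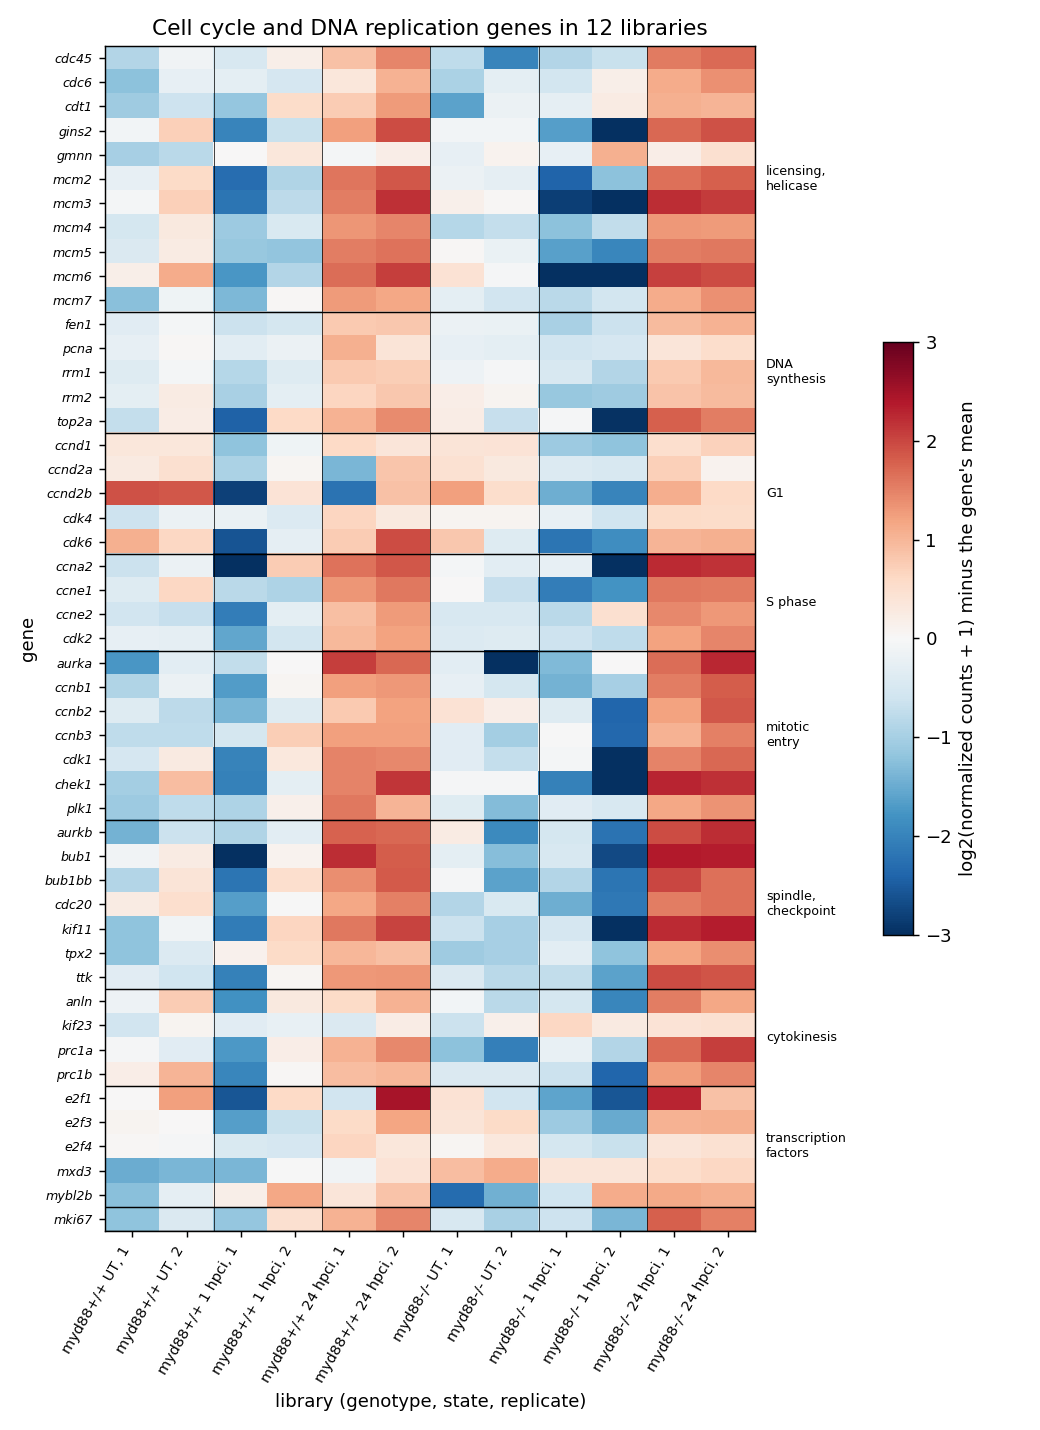
Each row is 1 of the 49 genes, grouped by role, and each column 1 library, with genotype, state and replicate number below. The colour gives log2(normalized counts + 1) minus the gene's mean over the 12 libraries, from -3 to 3. The 4 columns at 24 hpci are mostly red, and the darkest blue cells are in the columns at 1 hpci.

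At 24 hpci against UT, 24 of the 49 genes rose in *myd88*+/+ hearts and none fell, and 28 rose in *myd88*-/- hearts and none fell. A gene was called where limma's Benjamini-Hochberg adjusted p over all 16643 genes was below 0.05 and the fold change on the scale of normalized counts plus 1 was beyond 1.5 in either direction. By the same rule 39.9% of all genes tested were called in *myd88*+/+ hearts, 19% higher and 20.9% lower, and 30.1% in *myd88*-/- hearts, 15.6% higher and 14.5% lower. The median log2 fold change of the 49 genes was 1.48 in *myd88*+/+ and 1.88 in *myd88*-/-, while the median of all genes was -0.01 in each. Both libraries at 24 hpci were above both UT libraries for 42 genes in *myd88*+/+ (35% of all genes tested) and for 46 in *myd88*-/- (37.4%), and below them for 1 in each (35.9% and 37.8%), *ccnd2b* in *myd88*+/+ and *mxd3* in *myd88*-/-. Of the genes called, 22 were called in both genotypes, 91.7% of the *myd88*+/+ calls and 78.6% of the *myd88*-/- calls. Over all genes the corresponding shares were 59.8% and 72.8%. The counts of 24 and 28 calls rested on single libraries. The fits with the fewest members called also called fewer of all genes tested, but in *myd88*+/+ the members lost a larger share of their calls. The cause of the drop was not tested. With 1 library left out, the median of the 49 genes lay between 1.101 and 1.705 in *myd88*+/+ and between 1.747 and 2.012 in *myd88*-/-.

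**Figure D2:**
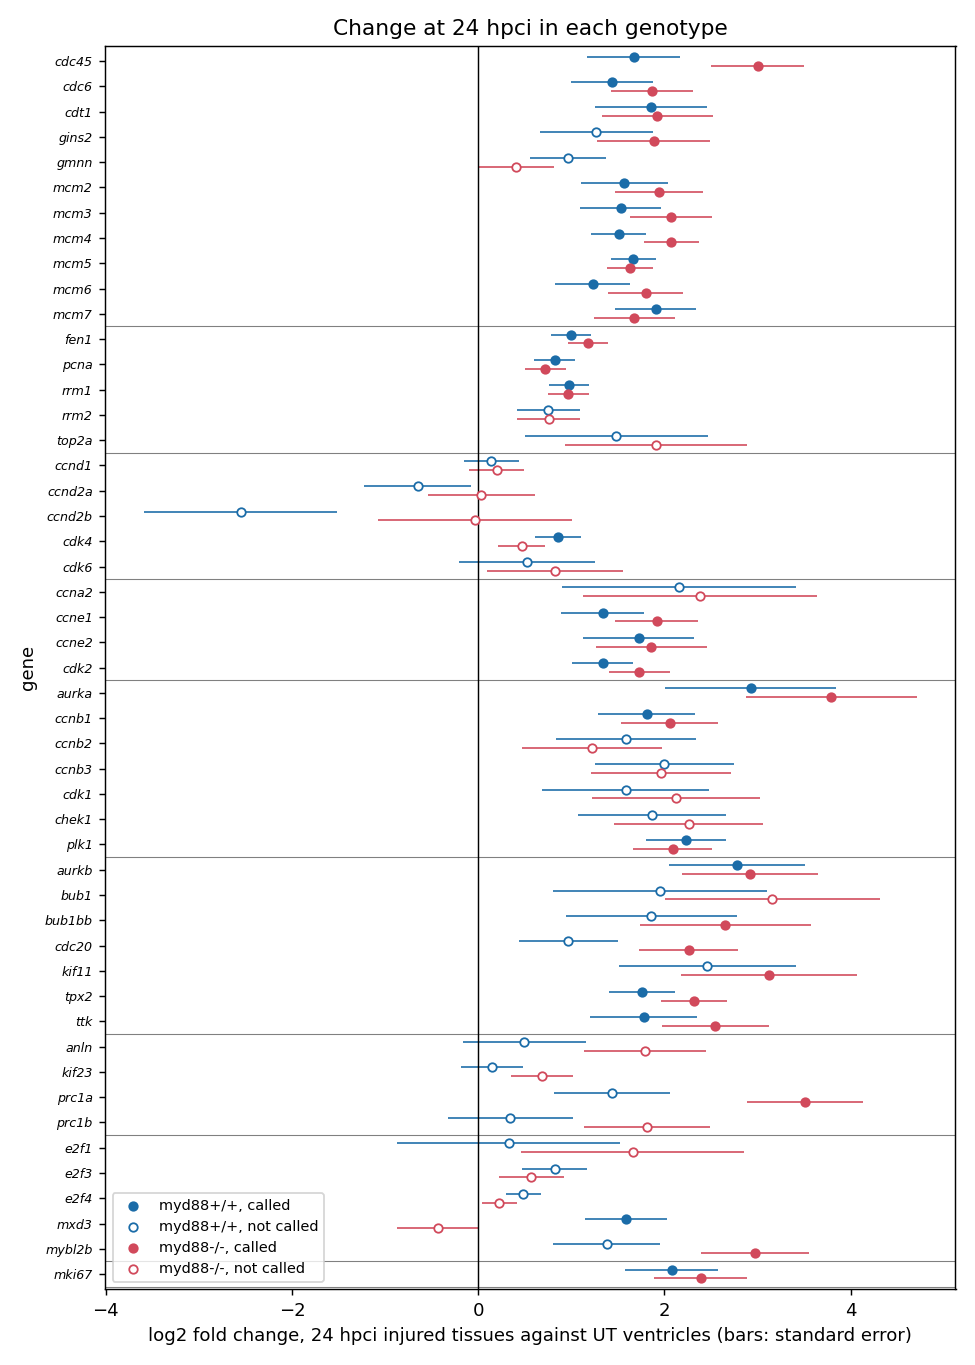
Points give the log2 fold change at 24 hpci against UT for each of the 49 genes in *myd88*+/+ (blue) and *myd88*-/- (red), and bars give the standard error from limma. Filled points passed the test, 24 in blue and 28 in red. Most points lie between 0.5 and 3, and the D-type cyclins lie near or below 0.

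At 1 hpci against UT, 4 of the 49 genes fell in *myd88*+/+ hearts and none rose. In *myd88*-/- hearts 10 fell and 1 rose. Of all genes tested, 8.73% were called in *myd88*+/+, 3.73% lower and 5.01% higher, and 10.4% in *myd88*-/-, 4.55% lower and 5.9% higher. The median log2 fold change of the 49 genes was -0.57 in *myd88*+/+ and -0.78 in *myd88*-/-, against 0.00 and -0.03 for all genes. Both libraries at 1 hpci were below both UT libraries for 17 genes in *myd88*+/+ and 25 in *myd88*-/-, which holds for 26.9% and 32.3% of all genes tested. They were above both UT libraries for 4 and 3 genes, against 27% and 30.1% of all genes tested. Genes called in both genotypes were *mcm3*, *mcm5* and *mcm6*, that is 3 of the 4 *myd88*+/+ calls and 3 of the 10 *myd88*-/- calls. Over all genes 37.4% and 30.6% of the calls were shared. The counts of 4 and 11 calls rested on single libraries. With 1 library left out, the median of the 49 genes lay between -1.13 and 0.04 in *myd88*+/+ and between -1.02 and -0.32 in *myd88*-/-. Markers of other cells differed in the same comparison. The sum of 6 genes listed as epicardial markers went from 3551 and 2933 to 2220 and 1524 in *myd88*+/+, with 2 called lower. In *myd88*-/- it went from 2709 and 2628 to 1218 and 1211, with 3 called lower. That list holds *aldh1a2* and *krt4*. The paper takes Aldh1a2 as a marker of activated endocardium as well as epicardium, and a *krt4* reporter line as endocardial, so the sum is not epicardial alone. The sum of 10 table entries for red blood cells lay between 2993 and 4557 in the 4 UT libraries and between 6339 and 7997 at 1 hpci, with 2 and 4 called higher. Of 8 macrophage markers none was called in *myd88*+/+ and 5 were called lower in *myd88*-/-. No epicardial, red blood cell or macrophage marker was at 0 in any library, and their part in the fall was not tested.

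At 24 hpci against 1 hpci, which compares injured tissue with injured tissue, 29 of the 49 genes rose in *myd88*+/+ and 41 in *myd88*-/-, and none fell. Of all genes tested 34.8% were called in *myd88*+/+, 16.9% higher and 18% lower, and 34.3% in *myd88*-/-, 18.1% higher and 16.3% lower. Both libraries at 24 hpci were above both at 1 hpci for 42 and 46 genes (28.7% and 36.2% of all genes tested), and below them for none (29.7% and 37.1%). The median log2 fold change of the 49 genes was 1.94 in *myd88*+/+ and 2.57 in *myd88*-/-. For all genes it was -0.04 and -0.03. Of the calls, 28 were shared by the genotypes, 96.6% of those in *myd88*+/+ and 68.3% of those in *myd88*-/-. Over all genes these shares were 76.9% and 71.8%. The counts of 29 and 41 rested in part on single libraries. With 1 library left out, the median of the 49 genes lay between 1.14 and 2.56 in *myd88*+/+ and between 2.11 and 2.75 in *myd88*-/-.

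The 6 subunits of the Mcm helicase rose in both genotypes at 24 hpci against UT, and 4 of them fell at 1 hpci in *myd88*+/+ hearts. The largest fall among the genes called was that of *mcm6* (chromosome 6, 12968101 to 12985390 of danRer11, plus strand). It had 109 and 212 normalized counts in untouched *myd88*+/+ hearts, 28 and 52 at 1 hpci and 312 and 410 at 24 hpci. In *myd88*-/- hearts it had 132 and 95, then 6 and 11, then 404 and 382. In each genotype the 3 states did not overlap, and the lowest values were those of *myd88*-/- injured tissue at 1 hpci. The log2 fold change of *mcm6* at 1 hpci against UT was -1.97 (SE 0.40, limma adjusted p = 0.0154) in *myd88*+/+ and -3.62 (SE 0.40, adjusted p = 0.000428) in *myd88*-/-. At 24 hpci against 1 hpci it was 3.19 (adjusted p = 0.000331) and 5.43 (adjusted p = 2.85e-05). The *myd88*+/+ fall lost its call without replicate 2 of UT and without replicate 1 of 1 hpci, and its adjusted p lay between 0.0148 and 0.137 over the libraries left out.

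*mcm3* (chromosome 20, 34770197 to 34783743, plus strand) followed the same course. Its normalized counts were 74 and 126 in untouched *myd88*+/+ hearts, 16 and 44 at 1 hpci and 223 and 354 at 24 hpci, and 85 and 78, 10 and 8, and 361 and 331 in *myd88*-/- hearts. Both values at 1 hpci lay below both UT values and both values at 24 hpci above them in each genotype. At 1 hpci the log2 fold change was -1.82 (SE 0.44, limma adjusted p = 0.0294) in *myd88*+/+ and -3.05 (SE 0.44, adjusted p = 0.00195) in *myd88*-/-. Without replicate 1 or 2 of UT or replicate 1 of 1 hpci the *myd88*+/+ call was lost, with an adjusted p of up to 0.210. The span of *mcm3* overlaps that of *stmn4* on the other strand over 10098 bases, and the sources used here do not give the strand setting of the counting. The spans of *ccnb3*, *ccne2*, *cdc45*, *cdk4* and *cdt1* also overlap a gene on the other strand, by 81 to 15384 bases, and their counts carry the same uncertainty. *tpx2* overlaps *mylk2* on its own strand over 405 bases, and reads that overlap several genes were left out of the counts.

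*mcm5* (chromosome 3, 25999477 to 26011440, plus strand) had the smallest standard error of the subunits. It was at 101 and 162 normalized counts in untouched *myd88*+/+ hearts, 61 and 59 at 1 hpci and 396 and 421 at 24 hpci, and at 139 and 119, 43 and 34, and 394 and 407 in *myd88*-/- hearts. The states did not overlap in either genotype. It fell by 1.08 on the log2 scale (SE 0.24, limma adjusted p = 0.0228) at 1 hpci in *myd88*+/+ and by 1.72 (SE 0.24, adjusted p = 0.00177) in *myd88*-/-, and at 24 hpci it stood 1.67 and 1.63 above UT. In *myd88*+/+ the fall lost its call without replicate 2 of UT or replicate 2 of 1 hpci (adjusted p up to 0.19).

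*mcm2* (chromosome 22, 5632029 to 5655680, minus strand) had 110 and 197 normalized counts in untouched *myd88*+/+ hearts, 26 and 70 at 1 hpci and 404 and 478 at 24 hpci. The *myd88*-/- values were 117 and 109, 24 and 55, and 417 and 459. The fall at 1 hpci did not overlap with UT in either genotype. It was called in *myd88*+/+ (log2 fold change -1.76, SE 0.47, limma adjusted p = 0.0438) and not in *myd88*-/- (-1.61, adjusted p = 0.0551), and the difference between the changes was 0.15 (adjusted p = 1). The *myd88*+/+ call was lost in 7 of the 12 fits that left out 1 library, namely either UT library or replicate 1 of 1 hpci of that genotype or any UT or 24 hpci library of *myd88*-/- (adjusted p up to 0.269).

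The remaining pair of subunits did not fall below UT at 1 hpci by the test. *mcm4* (chromosome 24, 35536664 to 35561672, minus strand) had 134 and 237 normalized counts in untouched *myd88*+/+ hearts, 90 and 140 at 1 hpci and 487 and 533 at 24 hpci, compared with 107 and 117, 82 and 116, and 476 and 474 in *myd88*-/- hearts. *mcm7* (chromosome 14, 94603 to 102022, plus strand) had 49 and 108, 46 and 120, and 289 and 263 in *myd88*+/+, and 96 and 79, 67 and 80, and 258 and 306 in *myd88*-/-. The values at 1 hpci overlapped those of UT for both genes in both genotypes, with log2 fold changes of -0.66 and -0.20 for *mcm4* and 0.03 and -0.25 for *mcm7*. Products of all 6 genes form 1 ring, and their RNA levels at 1 hpci against UT thus ranged from -1.97 to 0.03 in *myd88*+/+ and from -3.62 to -0.20 in *myd88*-/- on the log2 scale.

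**Figure D3:**
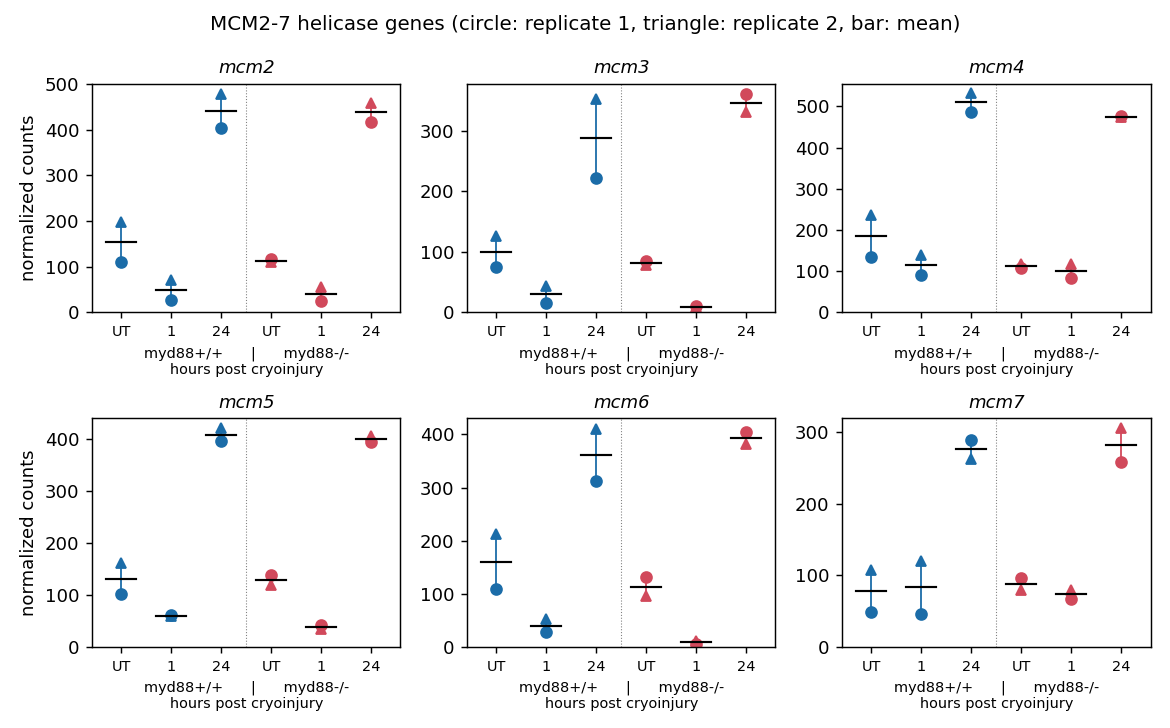
Each panel gives the normalized counts of 1 Mcm subunit gene in UT ventricles and in injured tissues at 1 and 24 hpci, in *myd88*+/+ (blue) and *myd88*-/- (red). Circles are replicate 1, triangles replicate 2 and bars the mean of both. All 6 genes are highest at 24 hpci, and *mcm6* in *myd88*-/- tissue at 1 hpci is at 6 and 11.

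Of the 5 other genes that load or start the helicase, *cdc6*, *cdt1* and *cdc45* rose at 24 hpci against UT in both genotypes. *cdc45*, whose product joins the helicase when it fires, had 12 and 21 normalized counts in untouched *myd88*+/+ hearts, 16 and 26 at 1 hpci and 43 and 65 at 24 hpci, compared with 13 and 5, 12 and 14, and 69 and 76 in *myd88*-/-. Its log2 fold change at 24 hpci against UT was 1.67 (SE 0.50, limma adjusted p = 0.022) and 3.00 (SE 0.50, adjusted p = 0.00169). *gins2*, a subunit of the GINS complex that fires with *cdc45*, had 14 and 25, 3 and 9, and 36 and 60 normalized counts in *myd88*+/+, and 14 and 14, 4 and 1, and 51 and 58 in *myd88*-/-. It fell at 1 hpci (-2.25, adjusted p = 0.0409) and rose at 24 hpci against UT (1.88, adjusted p = 0.0375) in *myd88*-/-, while in *myd88*+/+ the values were -1.64 (adjusted p = 0.123) and 1.27 (adjusted p = 0.117). At 1 hpci its values of 3 in *myd88*+/+ and 1 in *myd88*-/- lay under the worth of 3 reads in those libraries.

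*cdc6* and *cdt1* load the Mcm ring onto origins, and geminin, the product of *gmnn*, holds Cdt1 back. *cdt1* had 15 and 21, 14 and 48, and 56 and 80 normalized counts in *myd88*+/+ and 10 and 29, 27 and 39, and 69 and 67 in *myd88*-/-. *gmnn* had 21 and 24, 43 and 54, and 41 and 49 in *myd88*+/+ and 36 and 46, 36 and 90, and 49 and 60 in *myd88*-/-. Unlike the Mcm genes, *gmnn* in *myd88*+/+ was above UT in both libraries at 1 hpci and did not rise from 1 to 24 hpci, with a log2 fold change of -0.10 there (limma adjusted p = 0.869). No *gmnn* comparison was called, and its span overlaps 4 other genes, *tdp2b* and C19H6orf62 on the other strand and *tmem64* and *acot13* on its own.

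Among the genes for DNA synthesis, *pcna*, *fen1* and *rrm1* rose less at 24 hpci against UT than *mcm5* did. *pcna*, the sliding clamp of the polymerases (chromosome 10, 40821804 to 40826657, minus strand), had 272 and 333 normalized counts in untouched *myd88*+/+ hearts, 257 and 285 at 1 hpci and 673 and 421 at 24 hpci, compared with 271 and 264, 215 and 228, and 418 and 465 in *myd88*-/-. Its 4 values at 24 hpci lay above the other 8, and the highest was that of replicate 1 in *myd88*+/+. The rise against UT was 0.82 (SE 0.22, limma adjusted p = 0.0136) in *myd88*+/+ and 0.72 (SE 0.22, adjusted p = 0.0303) in *myd88*-/- on the log2 scale. *fen1*, the nuclease that trims lagging-strand flaps, rose by 1.00 and 1.18, and *rrm1*, the large subunit of ribonucleotide reductase, by 0.98 and 0.97.

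*rrm2*, the small subunit of the same enzyme, had 31 and 46 normalized counts in untouched *myd88*+/+ hearts, 19 and 31 at 1 hpci and 61 and 68 at 24 hpci. For *myd88*-/- they were 44 and 41, 17 and 18, and 70 and 75. It fell at 1 hpci in *myd88*-/- (log2 fold change -1.23, SE 0.34, limma adjusted p = 0.0432) and rose from 1 to 24 hpci in both genotypes, by 1.37 and 1.99. *top2a*, the topoisomerase that untangles chromosomes in G2 and mitosis, was less even. It had 51 and 98, 15 and 129, and 175 and 228 normalized counts in *myd88*+/+ and 98 and 52, 82 and 10, and 297 and 247 in *myd88*-/-, so that the 2 libraries of 1 hpci differed more than 8-fold in each genotype. Only its rise from 1 to 24 hpci in *myd88*-/- passed the test (3.17, SE 0.98, adjusted p = 0.0283).

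None of the 3 D-type cyclins was called higher at 24 hpci against UT in either genotype, and *ccnd1* in *myd88*-/- was the 1 call among them at 1 hpci. *ccnd1* (chromosome 7, 54668303 to 54679595, minus strand) had 189 and 188 normalized counts in untouched *myd88*+/+ hearts, 64 and 136 at 1 hpci and 226 and 191 at 24 hpci. The *myd88*-/- values were 195 and 198, 69 and 64, and 212 and 240. Both values at 1 hpci lay below both UT values in each genotype, and the fall was called in *myd88*-/- (log2 fold change -1.55, SE 0.29, limma adjusted p = 0.00872) and not in *myd88*+/+ (-1.01, SE 0.29, adjusted p = 0.0608). At 24 hpci it stood 0.14 (adjusted p = 0.724) and 0.20 (adjusted p = 0.647) from UT.

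*ccnd2a* and *ccnd2b*, the pair of copies of the second D cyclin, had no called change in any comparison. *ccnd2a* had 147 and 169, 62 and 127, and 46 and 216 normalized counts in *myd88*+/+ and 167 and 149, 91 and 86, and 199 and 131 in *myd88*-/-. *ccnd2b* had 103 and 100, 3 and 36, and 5 and 50 in *myd88*+/+ and 64 and 39, 9 and 6, and 58 and 41 in *myd88*-/-. The *myd88*+/+ libraries of 24 hpci were far apart for both copies, and the value of 5 for *ccnd2b* lay under the worth of 3 reads in that library. Reads that map to several places were removed before counting, so reads shared by the copies are missing from both. The kinases that pair with these cyclins differed from each other. *cdk4* rose at 24 hpci against UT in *myd88*+/+, from 55 and 75 to 132 and 104 normalized counts (0.86, SE 0.25, limma adjusted p = 0.0206). In *myd88*-/- it went from 90 and 90 to 126 and 124, which was not called. Its rise from 1 to 24 hpci was called in both genotypes. *cdk6* was at 37 and 27, 2 and 14, and 30 and 70 normalized counts in *myd88*+/+ and at 31 and 13, 3 and 4, and 36 and 37 in *myd88*-/-. Its fall at 1 hpci did not pass the test (-2.28, adjusted p = 0.081, and -2.24, adjusted p = 0.0783), and its rise from 1 to 24 hpci did (2.81, adjusted p = 0.0134, and 3.07, adjusted p = 0.00857). The value of 2 at 1 hpci lay under the worth of 3 reads.

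**Figure D4:**
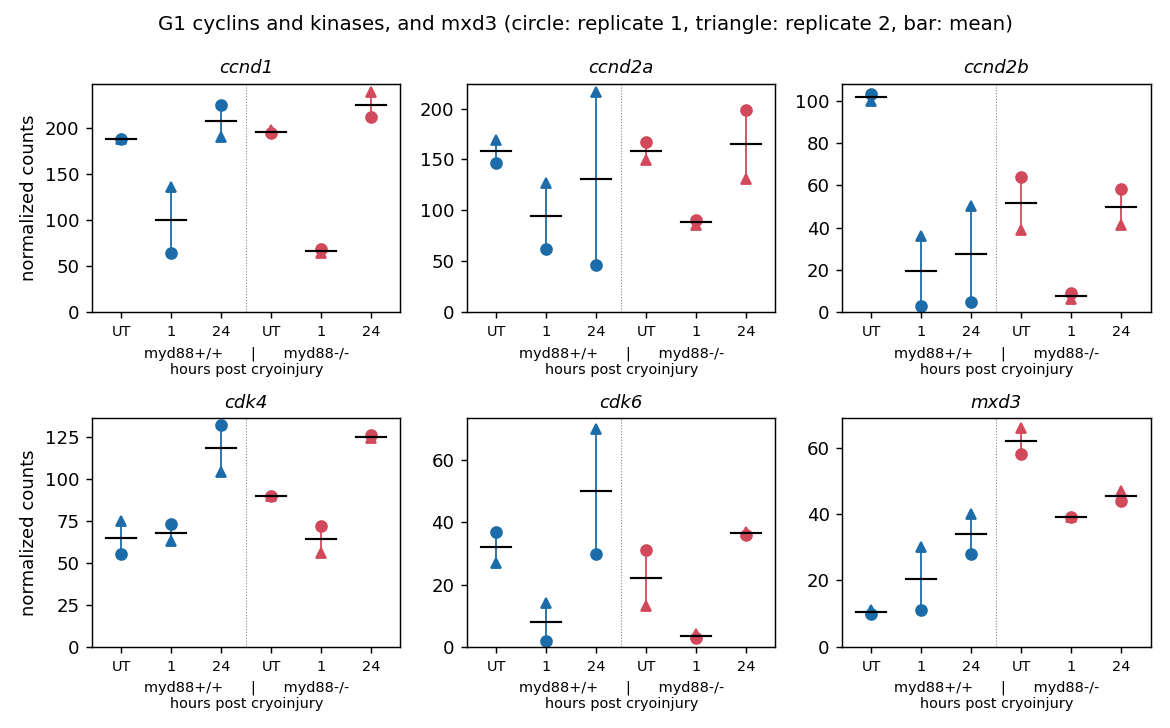
Panels give the normalized counts of the D-type cyclins *ccnd1*, *ccnd2a* and *ccnd2b*, of *cdk4* and *cdk6*, and of *mxd3*, in UT ventricles and at 1 and 24 hpci, *myd88*+/+ in blue and *myd88*-/- in red. Circles are replicate 1, triangles replicate 2 and bars the mean of both. For *mxd3* the *myd88*-/- UT values of 58 and 66 are the highest of the panel, and the *myd88*+/+ UT values of 10 and 11 lie at its lower end.

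The cyclins and the kinase of S phase rose at 24 hpci against UT in both genotypes, except *ccna2*. *ccne2* went from 13 and 12 normalized counts in UT to 38 and 50 at 24 hpci in *myd88*+/+. In *myd88*-/- it went from 14 and 14 to 56 and 51. Its calls lay near the threshold (log2 fold change 1.725, limma adjusted p = 0.0391, and 1.86, adjusted p = 0.0365). *ccne1*, an E-type cyclin that with Cdk2 starts S phase, had 15 and 31 normalized counts in untouched *myd88*+/+ hearts, 11 and 10 at 1 hpci and 51 and 62 at 24 hpci, compared with 20 and 12, 4 and 5, and 62 and 61 in *myd88*-/-. The rise of *ccne1* against UT in *myd88*+/+ was 1.34 on the log2 scale (limma adjusted p = 0.0343). With 1 library left out this rise lay between 0.84 and 1.84. Its 3 states did not overlap in either genotype, and *ccne1* fell at 1 hpci in *myd88*-/- (log2 fold change -1.59, SE 0.45, limma adjusted p = 0.0465). That call held in only 2 of 9 fits with another pseudocount, filter, scaling or model. With 1 library left out the log2 fold change lay between -1.94 and -1.25. *cdk2* had 51 and 50, 20 and 41, and 119 and 140 normalized counts in *myd88*+/+ and 45 and 46, 39 and 35, and 140 and 168 in *myd88*-/-, a rise of 1.34 and 1.73 against UT (SE 0.33 in each). *ccna2*, cyclin A, had 15 and 21, 1 and 41, and 76 and 90 in *myd88*+/+ and 23 and 19, 20 and 1, and 117 and 110 in *myd88*-/-. Both libraries at 24 hpci were above both UT libraries in each genotype, yet the changes of 2.16 (SE 1.25, adjusted p = 0.189) and 2.39 (adjusted p = 0.174) were not called, and at 1 hpci 1 library of each genotype held 1 normalized count.

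For mitotic entry, *aurka*, *ccnb1* and *plk1* rose at 24 hpci against UT in both genotypes, while *cdk1*, *ccnb2*, *ccnb3* and *chek1* did not pass the test although all their values at 24 hpci lay above UT. *aurka*, the Aurora kinase of the spindle poles, had the largest rise of the 49 genes in this comparison in each genotype. It had 2 and 7 normalized counts in untouched *myd88*+/+ hearts, 5 and 9 at 1 hpci and 41 and 32 at 24 hpci, and 7 and 0, 3 and 9, and 31 and 47 in *myd88*-/-. Its log2 fold changes, 2.93 (SE 0.92, limma adjusted p = 0.0272) and 3.79 (SE 0.92, adjusted p = 0.011), start from UT values of which the lower in each genotype lay under the worth of 3 reads. *plk1*, the Polo kinase, had 22 and 28, 25 and 54, and 147 and 98 normalized counts in *myd88*+/+ and 37 and 19, 38 and 34, and 108 and 125 in *myd88*-/-. It rose by 2.23 (SE 0.43, adjusted p = 0.00256) and 2.09 (SE 0.43, adjusted p = 0.00491).

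*ccnb1*, the cyclin that drives mitosis, had 16 and 27 normalized counts in untouched *myd88*+/+ hearts, 9 and 32 at 1 hpci and 74 and 77 at 24 hpci, compared with 26 and 21, 11 and 15, and 91 and 111 in *myd88*-/-. Its kinase *cdk1* had 30 and 52, 10 and 54, and 122 and 119 in *myd88*+/+ and 34 and 26, 41 and 4, and 123 and 144 in *myd88*-/-. Against UT, *ccnb1* rose by 1.81 (SE 0.52, limma adjusted p = 0.0187) and 2.06 (adjusted p = 0.0131), and *cdk1* had a similar log2 fold change with a wider error (1.58, SE 0.90, adjusted p = 0.178, and 2.12, adjusted p = 0.0972). *chek1*, the kinase that stops division when replication stalls, fell at 1 hpci in *myd88*-/- by the test (adjusted p = 0.0495), from 11 and 11 to 2 and 0 normalized counts. Both of those lay under the worth of 3 reads, so no fold is given.

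Of the 7 spindle and checkpoint genes, 3 rose at 24 hpci against UT in *myd88*+/+ (*aurkb*, *tpx2* and *ttk*) and 6 in *myd88*-/- (these and *bub1bb*, *cdc20* and *kif11*). The *bub1bb* call had a limma adjusted p of 0.0494 and held in 4 of 8 fits with another pseudocount, filter, scaling or model. Its UT value of 2 in replicate 2 of *myd88*-/- lay under the worth of 3 reads. *aurkb*, the Aurora kinase of the centromere, had 6 and 11 normalized counts in untouched *myd88*+/+ hearts, 9 and 14 at 1 hpci and 63 and 61 at 24 hpci, and 21 and 4, 12 and 3, and 72 and 85 in *myd88*-/-. *tpx2*, which activates Aurora A on the spindle, had 29 and 51, 75 and 102, and 137 and 129 in *myd88*+/+ and 32 and 34, 55 and 29, and 157 and 181 in *myd88*-/-. In *myd88*+/+ *tpx2* was above UT already at 1 hpci in both libraries (log2 fold change 1.16, SE 0.36, limma adjusted p = 0.0702), which was not the case in *myd88*-/- (0.27, adjusted p = 0.696). The difference between the genotypes in this change was not called.

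*bub1*, a kinase of the spindle checkpoint, differed widely between the libraries of 1 hpci. It had 17 and 22, 0 and 20, and 89 and 68 normalized counts in *myd88*+/+ and 15 and 7, 13 and 2, and 101 and 99 in *myd88*-/-. Its rise against UT was not called in either genotype (1.95, SE 1.15, limma adjusted p = 0.195, and 3.16, adjusted p = 0.0602) and its rise from 1 hpci was called in both. *kif11*, the kinesin that pushes the spindle poles apart, had 12 and 27, 6 and 46, and 89 and 122 in *myd88*+/+ and 18 and 14, 20 and 2, and 140 and 153 in *myd88*-/-. *cdc20*, which activates the complex that ends mitosis, had 25 and 30, 6 and 21, and 48 and 62 in *myd88*+/+ and 11 and 15, 7 and 4, and 63 and 68 in *myd88*-/-. For both genes the *myd88*-/- values at 24 hpci were the highest of the 12.

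None of the 4 cytokinesis genes was called at 24 hpci against UT in *myd88*+/+, and 1 was in *myd88*-/-. *anln*, the actin-binding scaffold anillin, had 72 and 136, 22 and 99, and 119 and 165 normalized counts in *myd88*+/+ and 76 and 45, 55 and 20, and 236 and 179 in *myd88*-/-. *prc1a*, 1 of a pair of genes for the protein that bundles microtubules between the separating chromosomes, had 15 and 12, 4 and 18, and 33 and 44 in *myd88*+/+ and 6 and 3, 13 and 8, and 52 and 68 in *myd88*-/-. It rose in *myd88*-/- (log2 fold change 3.51, SE 0.62, limma adjusted p = 0.00234) and its value in *myd88*+/+ was 1.44 (adjusted p = 0.0859). The *myd88*-/- UT value of 3 lay under the worth of 3 reads in that library. *kif23*, a motor of the same structure, had 68 and 108, 81 and 88, and 76 and 119 in *myd88*+/+ and 65 and 113, 159 and 124, and 137 and 141 in *myd88*-/-, and no comparison of it was called.

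Among the 5 transcription factors, *mybl2b*, a copy of the gene for B-Myb, differed from the rest in its time course. It had 24 and 48 normalized counts in untouched *myd88*+/+ hearts, 66 and 132 at 1 hpci and 76 and 107 at 24 hpci, and 11 and 21, 38 and 128, and 129 and 124 in *myd88*-/-. Both values at 1 hpci lay above both UT values in each genotype, and it was the 1 member called higher at 1 hpci, in *myd88*-/- (log2 fold change 2.13, SE 0.58, limma adjusted p = 0.0415, against 1.43, adjusted p = 0.155, in *myd88*+/+). The *myd88*+/+ values of 1 and 24 hpci overlapped. *e2f3* had 69 and 65, 20 and 40, and 96 and 148 in *myd88*+/+ and 85 and 97, 30 and 22, and 134 and 137 in *myd88*-/-. It fell at 1 hpci in *myd88*-/- (-1.78, SE 0.35, adjusted p = 0.0105), as did *e2f4* (-0.78, SE 0.19, adjusted p = 0.0259), which acts mainly as a repressor in resting cells. *e2f1*, the classical activator of S phase genes, was low and at or under the worth of 3 reads in several libraries. It had 5 and 13, 0 and 8, and 3 and 32 normalized counts in *myd88*+/+ and 7 and 3, 1 and 0, and 28 and 10 in *myd88*-/-. Its rise from 1 to 24 hpci was called in *myd88*-/-, where both values of 1 hpci lay under that floor, so no fold is given.

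*mki67*, the gene of the Ki-67 antigen used to mark dividing cells, had 35 and 60 normalized counts in untouched *myd88*+/+ hearts, 36 and 114 at 1 hpci and 170 and 228 at 24 hpci. In *myd88*-/- it had 58 and 41, 53 and 31, and 288 and 234. All 4 values at 24 hpci lay above the other 8. Its log2 fold change against UT was 2.08 (SE 0.50, limma adjusted p = 0.00785) in *myd88*+/+ and 2.39 (SE 0.50, adjusted p = 0.00516) in *myd88*-/-.

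Between the genotypes, 1 of the 49 genes differed in UT ventricles and none in injured tissue. Of all genes tested 2.08% were called in UT ventricles, 0.937% higher in *myd88*-/- and 1.15% lower. The gene was *mxd3* (chromosome 14, 16068318 to 16082806, minus strand), whose product binds Max and represses transcription in place of Myc. It had 10 and 11 normalized counts in *myd88*+/+ and 58 and 66 in untouched *myd88*-/- hearts, 11 and 30 against 39 and 39 at 1 hpci, and 28 and 40 against 44 and 47 at 24 hpci. The *myd88*-/- values were above the *myd88*+/+ values in each state. The log2 difference was 2.45 in UT ventricles (SE 0.44, limma adjusted p = 0.0236), 1.05 at 1 hpci (adjusted p = 0.504) and 0.43 at 24 hpci (adjusted p = 0.778). Over the 12 fits that left out 1 library the UT difference stayed between 2.36 and 2.54, and its adjusted p lay between 0.00759 and 0.191, above the threshold without any 1 of the 4 UT libraries. In *myd88*+/+ hearts *mxd3* rose from UT to 24 hpci (1.59, SE 0.44, adjusted p = 0.0162), while in *myd88*-/- both values at 24 hpci lay below both UT values (-0.44, adjusted p = 0.487). That rise lost its call without either *myd88*+/+ UT library or without replicate 2 of *myd88*+/+ at 24 hpci, with an adjusted p of up to 0.0779.

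At 1 hpci no member was called between the genotypes by limma, while 0.12% of all genes tested were, 0.012% higher and 0.108% lower in *myd88*-/-. At an unadjusted p below 0.05 there were 6 members, 5 of them lower in *myd88*-/-, and 8.84% of all genes tested. The largest difference was that of *mcm6*, at 28 and 52 normalized counts in *myd88*+/+ and 6 and 11 in *myd88*-/- (log2 difference -2.10, SE 0.40, limma adjusted p = 0.0833), followed among the genes above the floor by *mcm3* (-1.47, SE 0.44, adjusted p = 0.281). The median over the 49 genes was -0.45, against -0.01 for all genes, and with 1 library left out it lay between -1.0 and 0.18. Macrophage markers were lower in the same libraries, with a sum over 8 genes of 1302 and 1680 in *myd88*+/+ and 930 and 808 in *myd88*-/-. All 8 were lower in *myd88*-/-, with a median log2 difference of -0.96, none was called and none was at 0 in any library. Their part in the result was not tested.

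At 24 hpci no member was called between the genotypes by limma either, and none had an unadjusted p below 0.05, against 5.13% of all genes tested. The called share of all genes was 0.03%, 0.018% higher and 0.012% lower in *myd88*-/-. Both *myd88*-/- libraries nevertheless lay above both *myd88*+/+ libraries for 23 of the 49 genes, or 46.9%, and below them for 1, *mcm4*. Over all genes tested these shares were 16.1% and 12.2%. The differences were small, with a median of 0.27 on the log2 scale (0.04 for all genes). By role the 23 were 4 of the 4 cytokinesis genes, 6 of the 7 spindle genes, 3 of the 7 for mitotic entry, 3 of the 5 for DNA synthesis, 2 of the 4 of S phase, 2 of the 5 transcription factors, 2 of the 11 licensing and helicase genes, and *mki67*. With replicate 1 of *myd88*+/+ at 24 hpci left out, the shallow library, 28 of 49 genes had *myd88*-/- above, or 57.1%, and with replicate 2 left out 38, or 77.6%. All genes then gave 27.5% and 44.3%. The number with *myd88*-/- below went from 1 to 10 (20.4%, all genes 26.8%) and to 5 (10.2%, all genes 37.3%) in these orders, and was 6 (12.2%, all genes 32.5%) without replicate 2 of *myd88*-/-. The sum of heart muscle markers was 16484 and 7785 in the *myd88*+/+ libraries of 24 hpci and 8488 and 7157 in those of *myd88*-/-, and its part in the order of the libraries was not tested.

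Whether the response to injury itself differed between the genotypes was tested by the difference of the changes. No member was called for the change from UT to 1 hpci, from UT to 24 hpci or from 1 to 24 hpci, with 0.138%, 0.0481% and 0.018% of all genes called (0.0901%, 0.0361% and 0.018% with a higher change in *myd88*-/-). Among members picked for an unadjusted limma p below 0.05, the largest differences were those of *mcm6* and *prc1a*, neither of them called. For *mcm6* the rise from 1 to 24 hpci was steeper in *myd88*-/- by 2.23 (SE 0.57, limma adjusted p = 0.531). For *prc1a* the change from UT to 24 hpci differed by 2.08 (adjusted p = 0.565), and it starts from a *myd88*-/- UT value under the worth of 3 reads. Genes called in 1 genotype alone, such as *cdk4* and *mxd3* in *myd88*+/+ or *cdc20* and *kif11* in *myd88*-/- at 24 hpci against UT, were thus not shown to differ in their response.

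The 2 libraries of 1 hpci, and to a lesser degree those of UT, differed from each other in these genes more than in most others. In *myd88*+/+ replicate 2 was higher than replicate 1 for 44 of the 49 genes, and at least 2-fold higher for 30 of them, or 61.2%, on the scale of normalized counts plus 1. Of all genes tested 15.7% were at least 2-fold higher in replicate 2. In *myd88*-/- replicate 1 was the higher for 31 genes, at least 2-fold for 14, and replicate 2 at least 2-fold for 5, so that 38.8% were at least 2-fold apart, against 11.4% of all genes. For the spindle genes replicate 2 was higher for 7 of 7 in *myd88*+/+ and replicate 1 for 7 of 7 in *myd88*-/-, and for the cytokinesis genes the same held for 4 of 4. In UT ventricles 16.3% of the 49 genes were at least 2-fold apart in each genotype, against 7.37% of all genes in *myd88*+/+ and 9.84% in *myd88*-/-. There replicate 2 was the higher for 38 of the 49 genes in *myd88*+/+, and replicate 1 for 30 in *myd88*-/-. At 24 hpci 8.16% of the 49 genes were at least 2-fold apart in *myd88*+/+ and 2.04% in *myd88*-/-, below the 23.4% and 9.9% of all genes. In the *myd88*+/+ pair of 1 hpci, replicate 2 was also the library with the high fast skeletal muscle sum, 5739 against 1553, and it had the higher neutrophil marker sum, 1699 against 882. In the *myd88*-/- pair these sums were 1265 and 1331, and 957 and 954. The part of other tissue or cell types in the spread was not tested.

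**Figure D5:**
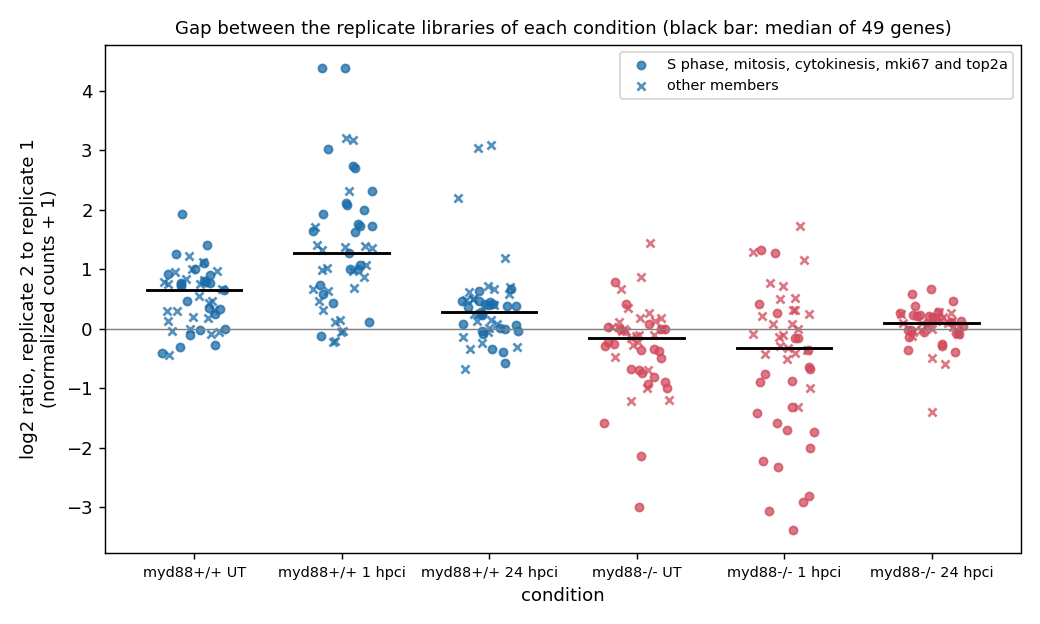
Each point is 1 of the 49 genes and gives the log2 ratio of replicate 2 to replicate 1 on normalized counts plus 1, for each of the 6 conditions. Dots are genes of S phase, mitosis and cytokinesis with *mki67* and *top2a*, crosses the other members, and black bars the median. In *myd88*+/+ at 1 hpci most points lie above 0, and in *myd88*-/- at 1 hpci many of the dots lie far below 0.

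Other genes of the pathway were counted from lists of known function. Of 44 other replication genes with a mean above 5, 30 rose at 24 hpci against UT in *myd88*+/+ and 32 in *myd88*-/-, and none fell. Of 46 other table entries for mitosis, 21 rose and 1 fell in *myd88*+/+, and 27 rose and 1 fell in *myd88*-/-. Of all genes tested 19% and 15.6% were called higher in this comparison. The genes described next were picked from the lists for their large called changes, and their size is no evidence about the lists. *orc3*, a subunit of the origin recognition complex, followed the course of the Mcm genes, with 61 and 68 normalized counts in untouched *myd88*+/+ hearts, 21 and 26 at 1 hpci and 170 and 190 at 24 hpci, and 54 and 61, 15 and 13, and 164 and 189 in *myd88*-/-. It was called lower at 1 hpci in both genotypes (log2 fold change -1.42, limma adjusted p = 0.00948, and -1.96, adjusted p = 0.00127). *mcm10*, which helps the helicase to fire, had 8 and 7, 3 and 9, and 28 and 45 normalized counts in *myd88*+/+ and 3 and 3, 0 and 1, and 55 and 51 in *myd88*-/-. *melk*, a kinase of dividing cells, had 2 and 5, 2 and 9, and 43 and 49 in *myd88*+/+ and 9 and 1, 6 and 3, and 45 and 51 in *myd88*-/-.

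Among 20 genes for inhibitors of the cycle, pocket proteins and repressor E2Fs, 7 rose at 1 hpci against UT in *myd88*+/+ and 5 in *myd88*-/-, none fell, and 13 and 15 were not called. Of all genes tested 5.01% and 5.9% were called higher there. From 1 to 24 hpci 1 rose and 7 fell in *myd88*+/+, and 2 rose and 9 fell in *myd88*-/-, where 18% and 16.3% of all genes tested were called lower. The 3 genes that follow were picked for their large called changes. *cdkn1cb*, a copy of the gene for the kinase inhibitor p57, had 13 and 8 normalized counts in untouched *myd88*+/+ hearts, 161 and 90 at 1 hpci and 23 and 13 at 24 hpci, and 0 and 2, 131 and 160, and 13 and 12 in *myd88*-/-. Its log2 fold change at 1 hpci in *myd88*+/+ was 3.44 (SE 0.57, limma adjusted p = 0.00678), and it was called in *myd88*-/- too, where no fold is given because both UT values lay under the worth of 3 reads. *ccng2*, an atypical cyclin linked to cell cycle arrest, had 248 and 237, 678 and 613, and 165 and 133 normalized counts in *myd88*+/+ and 251 and 297, 650 and 592, and 168 and 175 in *myd88*-/-. *cdkn1bb*, a copy of the p27 gene, had 149 and 186, 553 and 503, and 244 and 197 in *myd88*+/+ and 164 and 201, 460 and 577, and 185 and 163 in *myd88*-/-. For these 3 genes both values at 1 hpci were above all values of UT and 24 hpci in each genotype.

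Macrophage markers rose at 24 hpci together with the 49 genes. Of 8 such markers 6 were called higher at 24 hpci against UT in *myd88*+/+ and none lower, and 7 were called higher and 1 lower in *myd88*-/-. Of all genes tested 19% and 15.6% were called higher there, and 20.9% and 14.5% lower. No macrophage marker was at 0 in any library. Their summed normalized counts were 1218 to 1391 in the 4 UT libraries, 808 to 1680 at 1 hpci and 2977 to 5366 at 24 hpci. Heart muscle markers had sums of 15262 to 17915 in UT ventricles and 7157 to 16484 at 24 hpci. In each genotype 3 of their 10 table entries were called lower. Neutrophil markers were at 158 to 379 in UT ventricles, 882 to 1699 at 1 hpci and 805 to 1422 at 24 hpci. Which cells carried the RNA of the 49 genes, and the part of the cell types present in the changes, was not tested.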

How the data were processed

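The authors made stranded mRNA libraries, sequenced single-end reads of 75 bases and, per the submitters' processing notes and the methods, used Trimmomatic 0.39, STAR 2.7.3a (danRer11, Ensembl release 99), Picard 2.21.7, featureCounts 1.6.5 and DESeq2 1.26.0. The deposited values are a score: read counts that the authors scaled by size factors and then rounded. Raw counts could not be recovered from them, so tests for counts were not used. Log2(value + 1) of genes with a mean above 5 was fitted in limma 3.58.1 (R 4.3.3, trend) on the means of all 6 conditions, leaving 6 residual degrees of freedom, and a simulation checked the script. Fold changes on this scale understate those of low genes. For single genes, 2 against 2 libraries allow an exact two-sided p of 0.33 at the least. Members and lists were chosen with earlier results of these data known. Every member could be named, with genes of other lists taken from the largest called changes. Alternatives were other pseudocounts, filters, scalings and fits, and leaving out each library. A crossed block and array weights were added once the data had been seen. Replicate numbers name different pools. The span of 8 members overlaps another gene. Sequences were not used here.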

Additional observations from a re-analysis of the deposited data

Results flagged for a closer look

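*mxd3*, the gene of a Max-binding repressor, stood out because its libraries were ordered in opposite ways in the genotypes from UT to 24 hpci. In *myd88*+/+ hearts both values at 24 hpci (28 and 40 normalized counts) were above both UT values (10 and 11), and in *myd88*-/- hearts both (44 and 47) were below both UT values (58 and 66). The difference between the changes was -2.02 on the log2 scale (SE 0.62, limma unadjusted p = 0.00819). It was not called over all genes tested (adjusted p = 0.416). Of the separate changes, the rise in *myd88*+/+ passed the test (1.59, adjusted p = 0.0162) and the change in *myd88*-/- did not (-0.44, adjusted p = 0.487).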

How the results depend on the processing

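Of 138 calls of a member in a comparison, none changed sign in 3028 alternative values, and 382 of these values were no longer called. Most losses came from leaving out 1 library. For changes within a genotype, the fits with the lowest counts of members called also called fewer of all genes tested than the main fit. In other fits members and all genes moved in opposite ways. For *myd88*+/+ at 1 hpci against UT, leaving out replicate 1 of 1 hpci gave fewer members called and more of all genes. Leaving out replicate 2 of 1 hpci gave more members called and fewer of all genes. Leaving out 1 library gave the following lowest and highest counts of members called. For 1 hpci against UT these were 0 and 10 in *myd88*+/+ (4 with all libraries) and 3 and 13 in *myd88*-/- (11). For 24 hpci against UT they were 6 and 30 (24) and 10 and 32 (28), and for 24 against 1 hpci 13 and 35 (29) and 24 and 42 (41). Between untouched hearts of the genotypes they were 0 and 1 (1), between those of 1 hpci 0 and 3 (0) and between those of 24 hpci 0 and 1 (0). Members called whichever library was left out numbered 0, 5 and 13 in *myd88*+/+ and 3, 10 and 22 in *myd88*-/- for 1 hpci against UT, 24 hpci against UT and 24 against 1 hpci.

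With the groups compared alone in the fit, 0 members were called at 1 hpci against UT and 11 at 24 against 1 hpci in *myd88*+/+, and 7 at 1 hpci against UT in *myd88*-/-. Of all 16643 genes tested, 0, 1902 and 1552 were called in these fits, against 1453, 5793 and 1739 in the main fit. The *myd88*+/+ count at 1 hpci was 9 with quantile normalization and 2 without the trend, and the *myd88*-/- count was 7 without the filter. All genes gave 1945 and 1163 calls of 16643, and 1643 of 22736 without the filter. Array weights, chosen after seeing the data, gave 13 members at 24 hpci against UT and 9 at 24 against 1 hpci in *myd88*+/+, and 2 between the genotypes in UT ventricles. Of all 16643 genes tested they called 4831, 2080 and 2366 in the same order, against 6648, 5793 and 347 in the main fit. The cause was not tested. With the replicate number as a block, the counts for 1 hpci against UT, 24 hpci against UT and 24 against 1 hpci were 4, 25 and 29 in *myd88*+/+ and 9, 27 and 40 in *myd88*-/-, with 1, 0 and 0 between the genotypes at UT, 1 and 24 hpci. Over all genes tested the block gave 1215, 6390 and 5574 calls, then 1566, 4821 and 5531, then 218, 11 and 4. The labels tie no number to a shared batch or day. Deviations of same-numbered libraries correlated by 0.165 to 0.278 among the *myd88*-/- states, by 0.00811 to 0.282 among those of *myd88*+/+, and by -0.351 to -0.0236 between the genotypes in the same state. A crossed block, chosen after seeing the data for the genotype comparisons at 1 and 24 hpci, gave 0 members called in each. Of all genes tested it called 8 and 5. Low values limited *aurka*, *bub1*, *bub1bb*, *ccna2*, *ccnb2*, *ccnb3*, *ccnd2b*, *cdk6*, *chek1*, *e2f1*, *gins2*, *kif11* and *prc1a*, each at or under 3 reads in at least 1 library.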
